A study of Homo sapiens with 24 samples.

Results

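Antisense long noncoding genes, those whose symbol is the name of a protein-coding gene followed by AS and often a number, were described in cells of SK-HEP-1 with and without activation of p53. Of 1273 such genes in the deposited table of estimated counts, 178 were chosen by their mean level, at least 0.5 CPM (counts scaled to the library total) with Nutlin-3a or with DMSO. In 152 of them the mean reached 0.5 CPM in both treatments. A further 20 reached it with Nutlin-3a alone and 6 with DMSO alone, and because the choice itself makes these 26 differ between treatments their responses to Nutlin-3a are given as values only, while guides were compared within a treatment over all 178. The members just inside the threshold were USP27X-AS1 at 0.5 CPM, TMEM44-AS1 at 0.508 CPM and TFAP2A-AS1 at 0.517 CPM in the higher treatment. ZNF710-AS1 at 0.494 CPM, KDM4A-AS1 at 0.488 CPM and ZFHX2-AS1 at 0.485 CPM lay just outside.

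SK-HEP-1 is an established human cell line derived from a tumour of the liver, and its labels name the cell type as endothelial. All lines carried CRISPR interference (CRISPRi), in which an inactive Cas9 held at a promoter by a guide RNA represses transcription. The PURPL lines held sgRNA 2, 4, 5 or 6 against PURPL, a long noncoding RNA induced by p53, and the NTC lines held 1 of 2 non-targeting guides (NTC1 and NTC2). Each of the 6 lines was kept for 6 h with 10 µM Nutlin-3a, which frees p53 from MDM2, or with its vehicle DMSO, and was harvested as replicates 1 and 3 in each treatment, 24 libraries in all. Whether a line is 1 clone or a pool is not given in the sources used here.

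Antisense genes are transcribed from the strand opposite to their sense gene. Many start close to the promoter of the sense gene and run away from it, others overlap its end or lie inside it. Some are known to act on the sense gene in cis, some act elsewhere as RNA, and for most no role is known. The libraries were made with a kit that keeps the strand, but whether the counting used it is not given in the sources used here. For 127 of the 177 pairs with a sense gene in the table the exons of both genes overlapped, by a median of 331 bp, and in these pairs reads of one gene may be counted for the other.

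Library totals lay between 66.4 M and 92.1 M counts. The library of sg2 with Nutlin-3a from replicate 1 stood apart, with levels that rose by 1.26 on the log2 scale per 10 percentage points of GC content, where the slopes of the remaining 23 libraries were -0.16 to 0.269, and it is left out of all values unless named. Nutlin-3a was active: CDKN1A, the cell cycle inhibitor induced by p53, rose by 3.55 ± 0.10 (log2 fold change ± SE) in the NTC lines and by 3.85 ± 0.08 in the PURPL lines (edgeR quasi-likelihood test, Benjamini-Hochberg adjusted p = 8.65e-13 and 1.59e-15). PURPL lay between 0.273 and 0.868 CPM in PURPL lines with DMSO, against 7.4 to 10.1 CPM in NTC lines with DMSO. Of the 5 endothelial markers examined (PECAM1, CDH5, VWF, KDR and TEK), the summed level was at most 0.326 CPM in any of the 23 libraries, and PECAM1 and KDR were at most 0.0277 and 0.0125 CPM, so the defining markers of the labelled cell type were near 0. Of the nuclear-retained and mitochondrial RNAs used as RNA quality markers, some differed with treatment. NEAT1 had a median of 322.3 CPM in NTC lines with Nutlin-3a, against 138.1 CPM with DMSO, and MT-CO1 had 2840.5 CPM, against 2005.3 CPM. MALAT1, also nuclear-retained, had 64.5 CPM, against 55.2 CPM, and was not called (adjusted p = 0.165, edgeR). A response of these genes to Nutlin-3a and a difference of RNA quality between treatments cannot be told apart here. The part of these markers in the results below was not tested.

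The annotation (GENCODE release 29, hg38) placed 68 of the 178 genes head to head with their sense gene, meaning opposite strands with starts at most 1000 bp apart. A further 45 were tail to tail, 29 overlapped the sense gene at the starts but began over 1000 bp away, 19 lay inside it, 15 contained it, 1 lay apart from it (FOXD2-AS1), and for RPARP-AS1 no sense gene was found. By type, 122 were annotated as antisense, 26 as processed transcripts and 23 as intergenic. The symbol does not always mark a noncoding gene, since NCBP2-AS2 is annotated as protein-coding.

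For head-to-head pairs the sequence around the start shows how much promoter both genes share. RefSeq (GRCh38.p14) gave windows of 250 bases before to 50 bases after a start for both genes of 43 of the 68 head-to-head pairs. The windows overlapped in 26 pairs, with a median of 205.5 shared bases. The 4 windows below belong to pairs whose responses to Nutlin-3a are described further on: ZNF561-AS1 and KCNJ2-AS1, where both genes of the pair rose, TAF1A-AS1, which rose while its sense gene fell, and INKA2-AS1, whose sense gene rose alone. The RefSeq starts need not be those of GENCODE. Each is written 5′ to 3′ on the strand of the antisense gene, and capitals mark the stretch that also lies in the window of the sense gene.
ZNF561-AS1 (chr19:9621232-9621531, + strand, 251 shared bases): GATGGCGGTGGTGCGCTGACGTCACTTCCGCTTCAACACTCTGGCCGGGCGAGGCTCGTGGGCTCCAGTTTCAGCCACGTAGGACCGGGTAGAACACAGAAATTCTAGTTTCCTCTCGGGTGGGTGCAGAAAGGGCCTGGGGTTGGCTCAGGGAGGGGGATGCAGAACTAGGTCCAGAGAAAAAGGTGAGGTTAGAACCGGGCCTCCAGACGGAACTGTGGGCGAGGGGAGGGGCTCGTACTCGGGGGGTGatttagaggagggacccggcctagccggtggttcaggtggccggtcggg
KCNJ2-AS1 (chr17:70169353-70169652, - strand, 229 shared bases): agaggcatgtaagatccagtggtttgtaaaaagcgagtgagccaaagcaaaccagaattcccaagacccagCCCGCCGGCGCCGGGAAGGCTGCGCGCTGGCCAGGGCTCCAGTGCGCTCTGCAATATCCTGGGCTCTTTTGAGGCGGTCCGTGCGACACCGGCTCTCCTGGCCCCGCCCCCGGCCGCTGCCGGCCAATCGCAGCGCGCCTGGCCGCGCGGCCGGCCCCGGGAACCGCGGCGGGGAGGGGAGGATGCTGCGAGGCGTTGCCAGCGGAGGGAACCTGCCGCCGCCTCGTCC
TAF1A-AS1 (chr1:222589709-222590008, + strand, 125 shared bases): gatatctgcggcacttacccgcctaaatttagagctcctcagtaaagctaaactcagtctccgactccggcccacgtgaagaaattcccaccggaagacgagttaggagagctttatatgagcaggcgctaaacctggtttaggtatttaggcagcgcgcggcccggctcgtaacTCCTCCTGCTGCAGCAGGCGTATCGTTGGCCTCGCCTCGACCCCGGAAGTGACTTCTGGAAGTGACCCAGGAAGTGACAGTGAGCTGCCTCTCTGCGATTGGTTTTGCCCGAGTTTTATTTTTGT
INKA2-AS1 (chr1:111739591-111739890, + strand, 55 shared bases): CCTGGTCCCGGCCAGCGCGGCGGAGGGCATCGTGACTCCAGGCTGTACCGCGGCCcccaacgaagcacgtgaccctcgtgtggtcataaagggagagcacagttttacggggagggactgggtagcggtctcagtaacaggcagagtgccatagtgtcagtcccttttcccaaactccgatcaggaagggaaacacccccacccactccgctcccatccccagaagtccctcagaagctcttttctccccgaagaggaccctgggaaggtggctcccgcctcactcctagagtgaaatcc

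Each window was searched on both strands for CCAAT, for GGAAGT, the core bound by ETS factors, and for the p53 half-site. CCAAT occurred once in the windows of KCNJ2-AS1 and TAF1A-AS1 and in none of the windows of ZNF561-AS1 and INKA2-AS1. GGAAGT occurred 3 times in the window of TAF1A-AS1, once in that of ZNF561-AS1 and in neither of the other windows. None of the 4 windows held a p53 half-site. Over the 173 RefSeq windows of 135 members, 11.0% held a p53 half-site, 31.2% CCAAT and 18.5% GGAAGT, against 6.63%, 34.6% and 22.8% of the 35116 windows of all genes. A p53 half-site lay in a window of 19 members, 18 of which reached 0.5 CPM in both treatments. Of those 18, ALOX12-AS1, GABPB1-AS1, LBX2-AS1, ST20-AS1 and TTN-AS1 rose with Nutlin-3a in the NTC lines by the test described below and ZNF433-AS1 fell. Of all 152 members 27 rose (17.8%) and 9 fell (5.92%), and of all genes tested 8.88% and 15.9%. A match of letters is a description and not a site of binding.

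Most of these genes were expressed at a low level. The median member had 1.57 CPM (normalised CPM, mean of 23 libraries), with a range of 0.427 to 172.1 CPM; 66 members lay under 1 CPM, 95 between 1 and 10 CPM and 17 at 10 CPM or more. FGD5-AS1 and OIP5-AS1 held 28.5% of the summed level and the 10 highest members 56.0%. The summed level was between 958.0 and 1059.7 CPM in PURPL lines with Nutlin-3a, between 1018.0 and 1090.6 CPM in PURPL lines with DMSO, between 1019.8 and 1103.2 CPM in NTC lines with Nutlin-3a and between 931.6 and 1083.7 CPM in NTC lines with DMSO. These ranges overlapped.

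FGD5-AS1, a widely expressed RNA, was the most abundant member. It had 166.8 and 162.5 CPM in NTC1 and 172.2 and 160.5 CPM in NTC2 with Nutlin-3a, against 184.5 and 151.3 CPM in NTC1 and 189.0 and 193.2 CPM in NTC2 with DMSO. The NTC groups overlapped because of replicate 3 of NTC1 with DMSO, and without that library the gene was called in the NTC lines (log2 fold change -0.21, adjusted p = 0.00491, edgeR), whereas with it the log2 fold change was -0.15 ± 0.06 (adjusted p = 0.0695). It was also called with a replicate block (-0.15, adjusted p = 0.0396). In the PURPL lines its levels spanned 145.4 to 167.2 CPM with Nutlin-3a (median 155.1), against 176.9 to 194.1 CPM with DMSO (median 184.0), without overlap, and it fell by 0.24 ± 0.04 on the log2 scale (adjusted p = 0.000239). Its sense gene FGD5, an exchange factor known from vascular endothelium, had a count of 0 in every library, where a count of 0 allows up to 0.0326 to 0.0452 CPM (3 counts, counting error only).

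OIP5-AS1, known as Cyrano, a conserved cytoplasmic RNA, had 123.1, 119.0, 128.7 and 115.6 CPM in the 4 NTC libraries with Nutlin-3a, against 121.7, 87.2, 139.3 and 140.3 CPM in those with DMSO. The groups overlapped and the change was -0.03 ± 0.10 on the log2 scale (adjusted p = 0.883, edgeR). OIP5, a kinetochore protein gene of dividing cells, fell by 0.42 ± 0.12 on the log2 scale in the same lines (adjusted p = 0.0129). With each library's trend on GC content removed, FGD5-AS1 (-0.33, adjusted p = 0.000652), OIP5-AS1 (-0.20, adjusted p = 0.0411) and PSMA3-AS1 (-0.28, adjusted p = 0.0108) were called lower in the NTC lines. That fit did not scale the libraries to their depth. In it the median of all genes was -0.20 and 33.5% of them were called lower, so OIP5-AS1 was at about the median. MAGI2-AS3 at 49.3 to 56.7 CPM, PSMA3-AS1 at 45.2 to 49.7 CPM, OTUD6B-AS1 at 36.9 to 41.8 CPM, NUTM2B-AS1 at 30.2 to 36.0 CPM, LOXL1-AS1 at 29.9 to 33.3 CPM, NUTM2A-AS1 at 28.9 to 30.9 CPM and WAC-AS1 at 28.5 to 32.5 CPM in NTC lines with Nutlin-3a overlapped their levels with DMSO, and none passed the test. NUTM2A-AS1 and NUTM2B-AS1 belong to a family of duplicated loci, so the split of reads between them is uncertain. THAP9-AS1 was the exception among the 10 most abundant members and is described with the genes that fell.

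Levels can be compared between genes only per length. Per kilobase of exons, in DMSO, 172 members could be set beside a sense gene above 0, and 45 of them had a higher level than that sense gene. The median ratio of the antisense to the sense level was 0.142, and in 72 pairs it was under 0.1. THAP9-AS1 had 8.63 CPM per kb, against 0.681 for THAP9, a gene derived from a transposase. MAGI2-AS3 had 4.58 CPM per kb, against 0.109 for MAGI2, a scaffold protein of cell junctions. TMPO-AS1 had 4.19 CPM per kb, against 114.8 for TMPO, which encodes lamina-associated proteins of the nucleus.

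**Figure D1:**
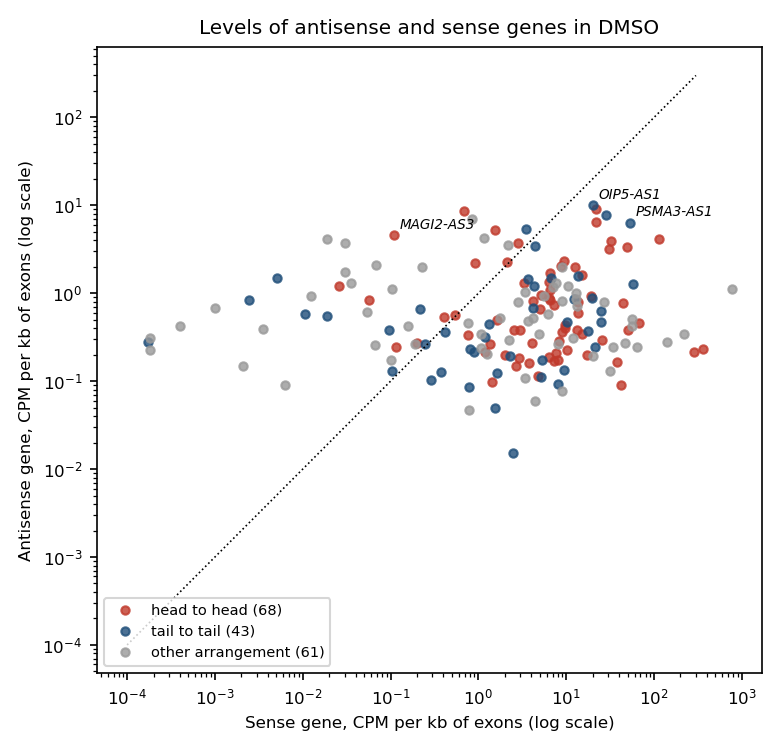
Level of each antisense gene (vertical axis) against that of its sense gene (horizontal axis) in DMSO, in CPM per kb of exons on log scales, with points coloured by arrangement and the dotted line at equal levels. Of 172 pairs, 45 lie above the line. The antisense levels span a narrower range than the sense levels, in part because only antisense genes had to reach 0.5 CPM to be chosen.

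The first comparison asked which antisense genes respond to stabilised p53 in lines with non-targeting guides. In the NTC lines, 27 of the 152 members at 0.5 CPM in both treatments rose with Nutlin-3a (17.8%) and 9 fell (5.92%), while of all 16697 genes tested 8.88% rose and 15.9% fell. The median log2 fold change was 0.12 over the members and -0.06 over all genes. Of 640 other long noncoding genes at 0.5 CPM or more, 18.3% rose and 7.34% fell. Of 3717 protein-coding genes in the same range of levels, 8.8% rose and 15% fell. These are counts of genes past the edgeR quasi-likelihood test at a Benjamini-Hochberg adjusted p of 0.05, and no test of the lists was made. The split differed between settings, for the members and for all genes. With each library's trend on GC content removed, 15 members rose and 21 fell, while 5.53% of all genes rose and 33.5% fell. This fit did not scale the libraries to their depth, so its values also hold differences of depth between libraries. With all 24 libraries 14 members rose and 2 fell, while 4.18% of all genes rose and 4.03% fell. With RLE size factors 35 members rose and 7 fell, against 11.1% and 11.4% of all genes, and with DESeq2 33 rose and 7 fell, against 11.8% and 12.5%. In the fit with the GC trend removed the median of all genes was -0.20, and 108 of the 152 members lay above it. Because depth was not scaled in that fit, this median does not show an effect of GC content. In the main fit 112 members lay above the median of all genes. Changes were mostly small, and 3 members rose and 0 fell by at least 2-fold. The share of all genes past 2-fold is not given here, so these 2 counts are a description without a background.

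The members that rose came from every arrangement with members tested. Of 61 head-to-head members 14 rose and 5 fell, of 35 tail-to-tail members 6 rose and 1 fell, of 26 that overlapped at the starts 3 rose and 2 fell, of 15 inside the sense gene 2 rose and 0 fell, and of 14 that contained the sense gene 2 rose and 1 fell. The median log2 fold changes of these classes were 0.16, 0.08, 0.09, 0.06 and 0.17.

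ZNF561-AS1 had the highest fold change. It lies on chromosome 19 (hg38, 9621291 to 9645896, + strand) and starts 108 bp from ZNF561, a zinc finger protein gene, with which it shares most of the window printed above. Its level was 1.63, 1.91, 2.30 and 2.15 CPM in the 4 NTC libraries with Nutlin-3a, against 0.767, 0.864, 0.755 and 0.784 CPM in those with DMSO. The groups did not overlap, and it rose by 1.29 ± 0.11 on the log2 scale (adjusted p = 2.98e-07, edgeR), with a higher mean in all 6 lines. ZNF561 itself had 87.6, 95.8, 93.2 and 91.0 CPM with Nutlin-3a, against 50.4, 38.3, 56.0 and 54.1 CPM with DMSO, and rose by 0.86 ± 0.08 (adjusted p = 5.07e-07).

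NOP14-AS1 (chromosome 4, 2934899 to 2961738, + strand) overlaps the end of NOP14, a gene of small ribosomal subunit assembly, by 605 bp of exons. It had 5.42, 5.83, 4.97 and 6.16 CPM in NTC lines with Nutlin-3a, against 2.92, 2.69, 2.75 and 2.19 CPM with DMSO, without overlap, a rise of 1.05 ± 0.13 on the log2 scale (adjusted p = 1.07e-05, edgeR). NOP14 moved the other way, with 52.1 ± 1.66 CPM with Nutlin-3a and 64.5 ± 4.78 CPM with DMSO (SD, n = 4 each), and fell by 0.34 ± 0.06 (adjusted p = 0.000291).

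KCNJ2-AS1 (chromosome 17, 70166961 to 70169402, - strand) shares its start region with KCNJ2, which encodes an inwardly rectifying potassium channel. It had 2.13, 2.38, 1.76 and 1.79 CPM in NTC lines with Nutlin-3a, against 0.846, 1.02, 0.944 and 1.18 CPM with DMSO. The groups were apart and the rise was 0.97 ± 0.13 on the log2 scale (adjusted p = 4.02e-05, edgeR). KCNJ2 rose alongside it by 0.92 ± 0.10 (adjusted p = 3.14e-06), with 27.7 to 34.0 CPM with Nutlin-3a, against 13.9 to 17.6 CPM with DMSO.

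FLG-AS1 (chromosome 1, 152168125 to 152445456, + strand) spans the gene of filaggrin, a protein of the skin barrier. It had 8.76, 5.46, 8.63 and 4.77 CPM in NTC lines with Nutlin-3a, against 3.57, 2.94, 4.03 and 3.34 CPM with DMSO, and rose by 0.96 ± 0.19 on the log2 scale (adjusted p = 0.00118, edgeR). FLG rose by 1.11 ± 0.24 (adjusted p = 0.0027). The groups of FLG-AS1 did not overlap, although replicate 3 of either NTC line had a lower level with Nutlin-3a than replicate 1. Exons of the pair overlap by 704 bp.

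The other named genes that rose lay near 1 CPM. SLC25A21-AS1, head to head with the gene of a mitochondrial carrier, rose by 0.96 ± 0.19 on the log2 scale (adjusted p = 0.00106, edgeR), DLGAP1-AS1 by 0.83 ± 0.20 (adjusted p = 0.00567) and KIAA1614-AS1 by 0.82 ± 0.15 (adjusted p = 0.000496). CCDC18-AS1 rose by 0.78 ± 0.19 (adjusted p = 0.00687), a call lost with all 24 libraries (adjusted p = 0.0628). PAXBP1-AS1 rose by 0.72 ± 0.19 (adjusted p = 0.0101), a call lost without replicate 3 of NTC1 with DMSO (adjusted p = 0.0578) or without replicate 1 of NTC2 with Nutlin-3a (adjusted p = 0.0506). The 4 Nutlin-3a libraries lay above the 4 DMSO libraries for each of these genes in the NTC lines, the closest being PAXBP1-AS1 with a lowest level of 0.825 CPM with Nutlin-3a, against a highest of 0.789 CPM with DMSO. DLGAP1, the sense gene of DLGAP1-AS1, is a synaptic scaffold gene and was at or below 0.0135 CPM in all 8 NTC libraries. Of the 10 genes that the rule names as risen in the NTC lines, 8 kept their call under every alternative run.

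TMPO-AS1 (chromosome 12, 98512973 to 98516422, - strand) fell most. It starts 910 bp from TMPO and had 7.99, 8.68, 8.07 and 8.06 CPM in NTC lines with Nutlin-3a, against 12.7, 15.6, 13.4 and 15.2 CPM with DMSO. The groups did not overlap, and it fell by 0.83 ± 0.09 on the log2 scale (adjusted p = 4e-06, edgeR), with a lower mean in every line. TMPO had 649.5, 671.5, 690.8 and 664.6 CPM with Nutlin-3a, against 878.4, 810.5, 1024.4 and 1127.2 CPM with DMSO, and fell by 0.55 ± 0.06 (adjusted p = 3.75e-06). The pair shares 713 bp of exons.

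THAP9-AS1 fell by 0.52 ± 0.09 on the log2 scale (adjusted p = 0.000668, edgeR). It had 27.5, 27.5, 30.8 and 24.9 CPM in NTC lines with Nutlin-3a, against 36.8, 35.1, 41.9 and 41.3 CPM with DMSO. The groups did not overlap. THAP9, whose start lies 276 bp away, had 2.33 to 2.74 CPM, against 2.11 to 3.05 CPM, and its log2 fold change of -0.11 ± 0.10 did not pass the test (adjusted p = 0.49).

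The other 7 genes that fell were weaker calls. SERTAD4-AS1 fell by 0.54 ± 0.16 on the log2 scale (adjusted p = 0.0201, edgeR), CARD8-AS1, beside an inflammasome sensor gene, by 0.61 ± 0.18 (adjusted p = 0.0199) and SLC16A1-AS1, beside a lactate transporter gene, by 0.37 ± 0.09 (adjusted p = 0.00645). ATP6V0E2-AS1, ZNF433-AS1, UBL7-AS1 and TTC28-AS1 fell by 0.58, 0.40, 0.33 and 0.27 on the log2 scale (adjusted p = 0.0183, 0.0189, 0.0184 and 0.0304, edgeR). The NTC groups of ATP6V0E2-AS1 overlapped, with 0.606 to 0.789 CPM with Nutlin-3a, against 0.726 to 1.26 CPM with DMSO, and those of the other 6 did not. Each of the 7 lost its call under at least 1 alternative, and 2 of the 9 genes that fell, TMPO-AS1 and THAP9-AS1, kept it under all that were run.

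Most of these weaker calls were lost when 1 library was left out, a fit that keeps 1 library of that line and treatment. Of all genes tested 15.9% fell in the main fit. In these fits 11.9% to 14.1% of all genes fell, save 16.7% without replicate 1 of NTC1 with DMSO. How much of each lost call comes from having fewer libraries was not tested. Without replicate 3 of NTC2 with DMSO the adjusted p (edgeR) was 0.0928 for CARD8-AS1, 0.0761 for SERTAD4-AS1, 0.129 for TTC28-AS1, 0.0685 for UBL7-AS1 and 0.0585 for ZNF433-AS1, and 5 members fell. Without replicate 3 of NTC2 with Nutlin-3a it was 0.0726 for SERTAD4-AS1, 0.0946 for TTC28-AS1, 0.0617 for UBL7-AS1 and 0.0555 for ZNF433-AS1, and again 5 fell. Without replicate 1 of NTC2 with Nutlin-3a it was 0.0802 for CARD8-AS1, 0.0652 for ATP6V0E2-AS1, 0.061 for TTC28-AS1 and 0.0537 for ZNF433-AS1, and 6 fell. Without replicate 3 of NTC1 with Nutlin-3a it was 0.061 for ATP6V0E2-AS1, 0.0638 for UBL7-AS1 and 0.0783 for ZNF433-AS1. Without replicate 1 of NTC1 with Nutlin-3a it was 0.076 for CARD8-AS1, 0.0671 for SERTAD4-AS1 and 0.109 for TTC28-AS1. Without replicate 3 of NTC1 with DMSO it was 0.0673 for CARD8-AS1 and 0.0649 for SERTAD4-AS1, without replicate 1 of NTC1 with DMSO 0.0807 for TTC28-AS1, and without replicate 1 of NTC2 with DMSO 0.0941 for ATP6V0E2-AS1. SLC16A1-AS1 kept its call without any 1 library and lost it without the filter on low counts (adjusted p = 0.107) and with all 24 libraries (adjusted p = 0.0949).

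**Figure D2:**
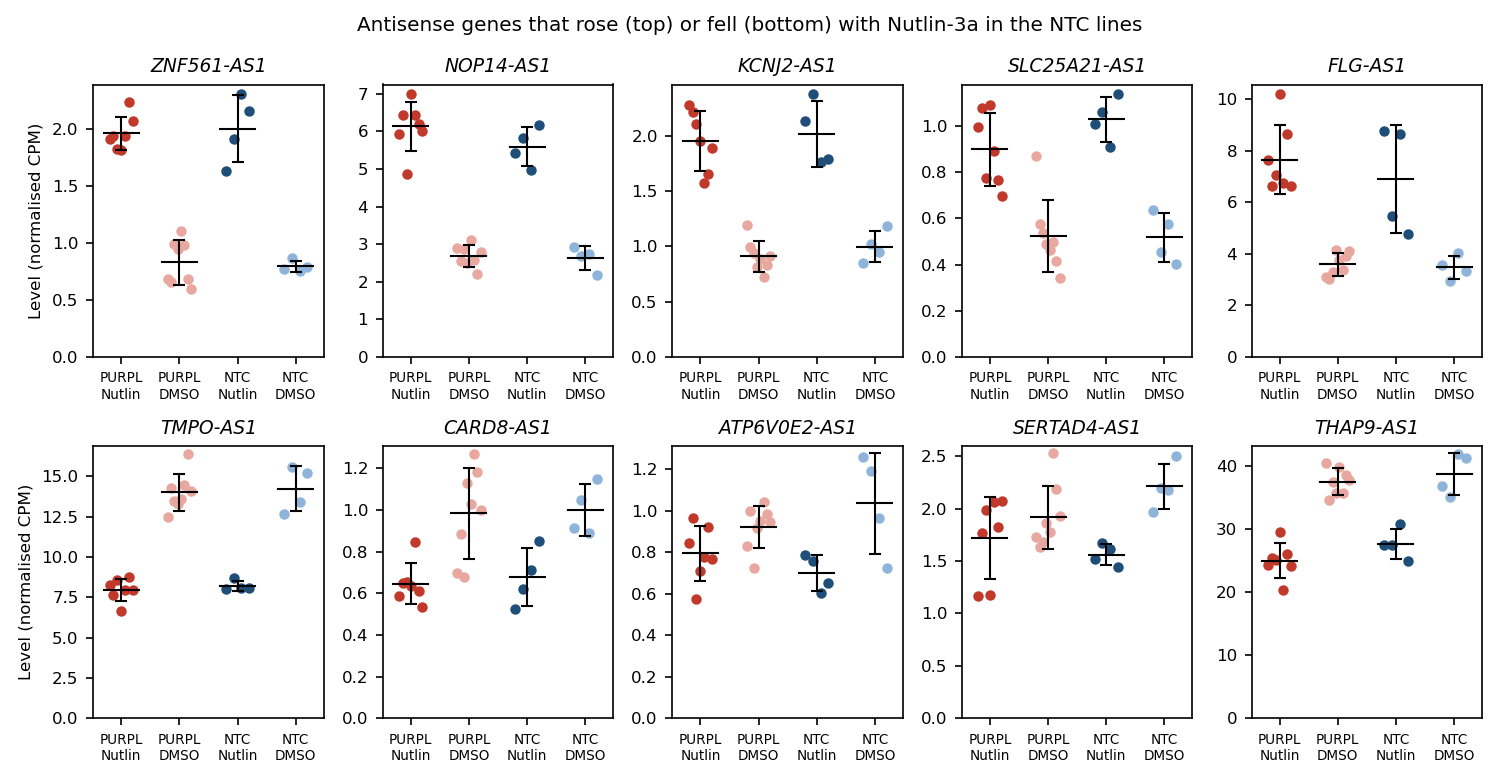
Normalised CPM of 10 antisense genes in single libraries (points), with the mean (line) and SD (bar) of 7 PURPL libraries with Nutlin-3a, 8 PURPL libraries with DMSO, 4 NTC libraries with Nutlin-3a and 4 with DMSO; the sg2 library that stands apart is not drawn. For ZNF561-AS1, NOP14-AS1 and KCNJ2-AS1 all Nutlin-3a libraries lie above all DMSO libraries, and for TMPO-AS1 and THAP9-AS1 all lie below.

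The same question was asked in the 4 PURPL lines, whose libraries are not those of the NTC lines. With Nutlin-3a 38 of the 152 members rose (25.0%) and 11 fell (7.24%), while of all genes tested 15.9% rose and 22.7% fell. The median log2 fold change was 0.11 over the members and 0 over all genes. By at least 2-fold 5 members rose, again without a share of all genes beside this count. Of the other long noncoding genes 27% rose and 10.9% fell, and of the protein-coding genes of like level 19.6% rose and 17.1% fell. Among the 5 members past 2-fold were ZNF561-AS1, which rose by 1.25 ± 0.08, NOP14-AS1 by 1.17 ± 0.09, KCNJ2-AS1 by 1.11 ± 0.10 and FLG-AS1 by 1.08 ± 0.14 on the log2 scale (adjusted p at most 9.4e-06, edgeR).

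In the PURPL lines NOP14-AS1 spanned 4.87 to 7.01 CPM with Nutlin-3a (median 6.21), against 2.20 to 3.10 CPM with DMSO (median 2.68). TMPO-AS1 spanned 6.64 to 8.77 CPM (median 7.94), against 12.5 to 16.4 CPM (median 13.8). For neither gene did the ranges overlap. In the sg2 library that stands apart, NOP14-AS1 was at 14.5 CPM, above the range of the other Nutlin-3a libraries. MCM3AP-AS1, PAXIP1-AS1, COX10-AS1, EMC3-AS1, PTPRG-AS1 and FGD5-AS1 fell in the PURPL lines by 0.24 to 0.44 on the log2 scale and were not called in the NTC lines (for FGD5-AS1 with the exceptions given above), a contrast that was tested only through the difference of responses given below.

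The same 23 members rose in the PURPL and in the NTC lines, the same 5 fell, and 0 were called in opposite directions. All 36 members called in the NTC lines had the same sign in the PURPL lines. Across the 152 members the log2 fold changes of both sets correlated with r = 0.857, and across all genes tested with r = 0.681. These are correlations across genes, which are not independent replicates, from libraries normalised together and fitted in 1 model.

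**Figure D3:**
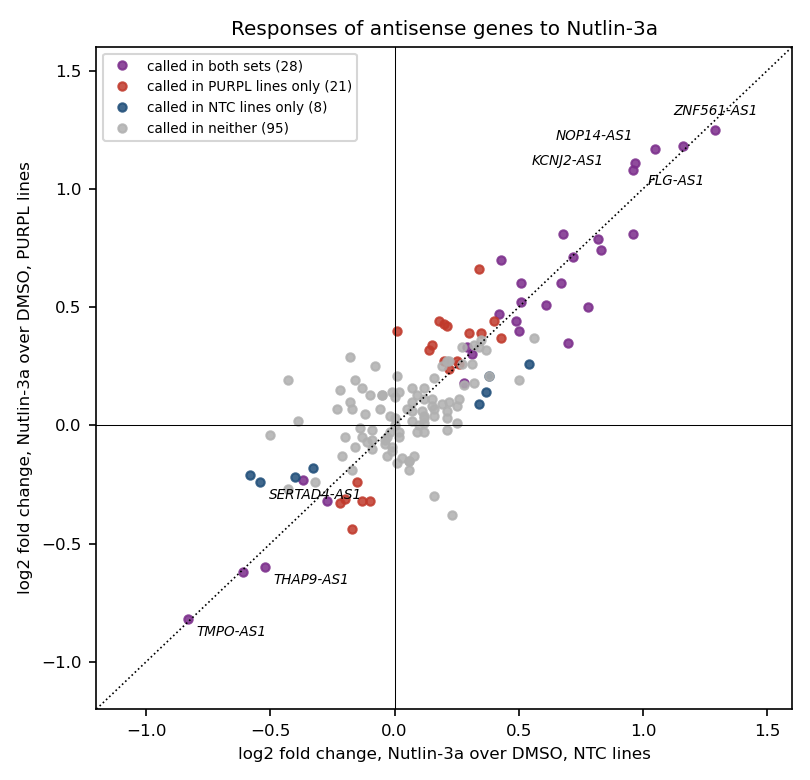
Log2 fold change of each of the 152 antisense genes with Nutlin-3a over DMSO in the PURPL lines (vertical axis) and in the NTC lines (horizontal axis), coloured by the set of lines in which the gene passed the test, with the dotted line at equal values. The 28 genes called in both sets lie at the upper right (23, higher) and the lower left (5, lower), and no gene was called in opposite directions.

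Guides against PURPL were compared with non-targeting guides over the sums of each line, 4 lines against 2. In DMSO 0 members were called, while 0.00601% of the 16648 genes tested were. With Nutlin-3a 0 members were called, against 0.00596% of genes, and for the difference of the responses 0 members, against 0% of genes (edgeR, adjusted p of 0.05). At an unadjusted p under 0.05 there was 1 of the 178 members in DMSO, while 3.17% of all genes were, and there were 3 with Nutlin-3a, while 4.77% of all genes were. For the difference of responses there were 2 of the 152 members at 0.5 CPM in both treatments, while 5.81% of all genes were. DESeq2 called 0 members in each comparison. The largest absolute log2 fold change of a member was 0.55 in DMSO and 0.43 with Nutlin-3a, and the largest difference of responses was 0.64. Without the line NTC2, 19 members passed the threshold in DMSO and 5 for the difference of responses, but so did 36.8% and 16.7% of all genes, with NTC1 then standing alone as the control line.

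In DMSO the smallest unadjusted p belonged to SP2-AS1, which averaged 0.550 ± 0.0983 CPM in PURPL lines (SD, n = 8 libraries) and 0.381 ± 0.114 CPM in NTC lines (n = 4 libraries), with a log2 fold change of 0.55 ± 0.21 (adjusted p = 0.825, edgeR). GATA2-AS1 and SBF2-AS1 followed, with log2 fold changes of 0.38 ± 0.17 and 0.21 ± 0.10 and the same adjusted p. With Nutlin-3a THAP9-AS1 averaged 25.0 ± 2.75 CPM in PURPL lines (n = 7 libraries) and 27.7 ± 2.42 CPM in NTC lines (n = 4 libraries), a log2 fold change of -0.15 ± 0.05 (adjusted p = 0.828, edgeR). A1BG-AS1 at 0.36 ± 0.13 and ZNF674-AS1 at -0.21 ± 0.07 came next. For the difference of responses, among members at 0.5 CPM in both treatments, A1BG-AS1 and AGAP2-AS1 had the smallest p, with 0.45 ± 0.18 and 0.64 ± 0.28 on the log2 scale (adjusted p = 0.613 for each, edgeR). Without NTC2 the value of AGAP2-AS1 was 1.12, with NTC1 as the only control line. AGAP2-AS1 had 2.64 and 3.67 CPM in NTC1 with DMSO, against 1.83 and 1.14 CPM in NTC2 with DMSO. In PURPL lines it spanned 1.53 to 3.48 CPM with Nutlin-3a and 1.30 to 2.05 CPM with DMSO. The sg2 library that stands apart had 33.7 CPM. None of these genes passed the test with all lines.

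Each antisense gene was then set beside its sense gene. In the NTC lines both genes of a pair rose in 3 pairs (ZNF561, KCNJ2 and FLG) and both fell in 3 (TMPO, SERTAD4 and SLC16A1). The antisense gene rose while the sense gene fell in 5 pairs, those of NOP14, PAXBP1, CCDC18, TAF1A and USP46, and the antisense gene fell while the sense gene rose in 0. Over all 136 pairs the sense gene rose in 12 and fell in 29, and the counts of pairs were not tested against these shares. In 16 pairs the antisense gene alone rose, in 5 it alone fell, in 9 the sense gene alone rose and in 21 it alone fell, and in 74 neither was called. In the PURPL lines both rose in 8 pairs and both fell in 7, and the antisense gene rose against a falling sense gene in 8, with 0 pairs of the reverse kind. There the sense gene rose in 21 and fell in 48 of the pairs. The 5 pairs of the NTC lines with a rising antisense and a falling sense gene were among the 8 of that kind in the PURPL lines, joined by ZEB1, ARHGAP5 and PPP1R12A.

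Across 136 pairs the log2 fold changes of antisense and sense gene correlated with r = 0.292 in the NTC lines and r = 0.25 in the PURPL lines. The 61 head-to-head pairs had r = 0.409 and 0.365, and the 31 tail-to-tail pairs r = 0.0177 and -0.179. Over 1684 other opposite-strand pairs head to head the values were 0.23 and 0.197, and over 1983 other overlapping pairs 0.0894 and 0.0812. These correlations are across pairs of genes that share libraries, depth and, where exons overlap, possibly reads, and they are given as a description.

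**Figure D4:**
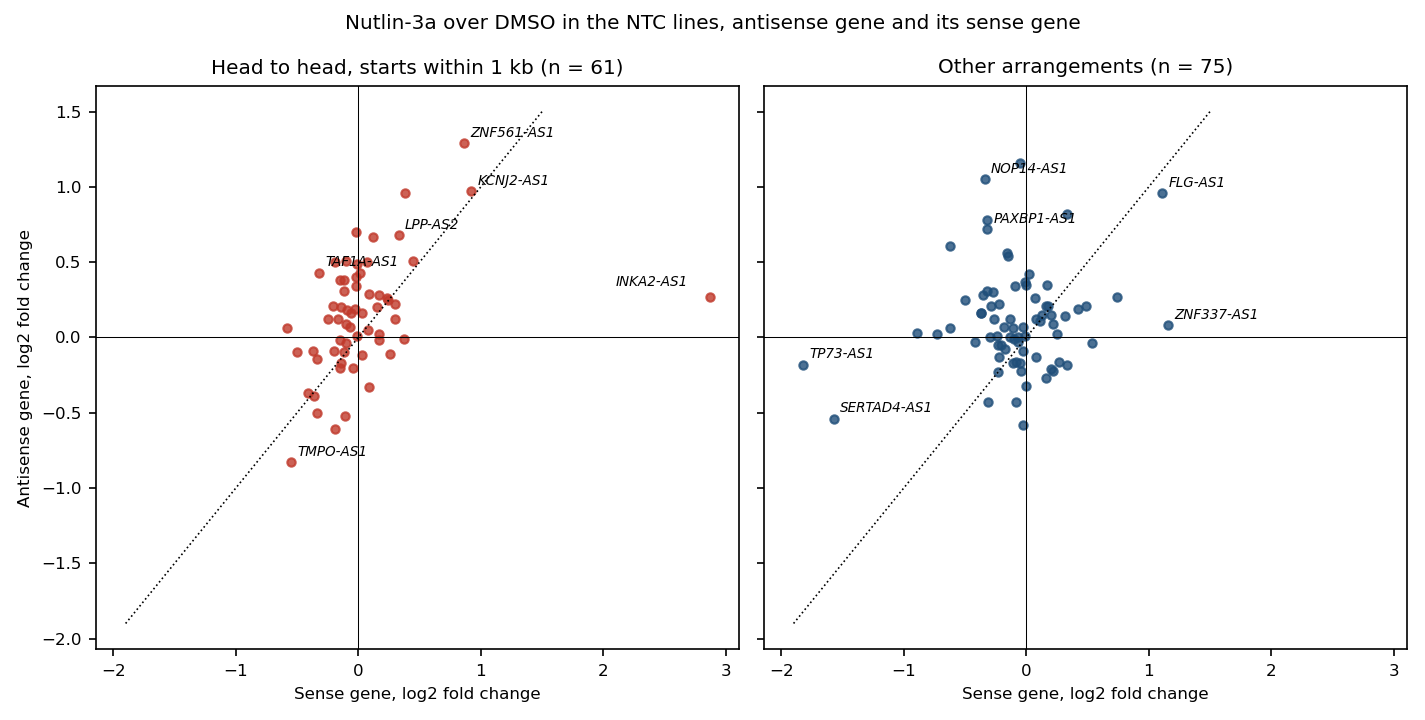
Log2 fold change with Nutlin-3a over DMSO in the NTC lines of the antisense gene (vertical axis) and its sense gene (horizontal axis), for 61 head-to-head pairs (left) and the pairs in other arrangements (right), with the dotted line at equal change. INKA2 and ZNF337 lie far to the right and TP73 and SERTAD4 far to the left at antisense changes near 0 or at -0.54, and ZNF561 and KCNJ2 lie near the line.

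The ratio of the antisense to the sense level within a library removes the scaling of that library. It was tested with limma over 3986 opposite-strand pairs, averaged over the 6 lines. For the members, 59 of 136 ratios rose with Nutlin-3a and 19 fell, together 57.4%, while 47.4% of all pairs tested changed in either direction. Pairs without a gene of the antisense naming were ordered by gene ID. All pairs thus give no background for the split of the members into risen and fallen ratios. The median change of the members was 0.16 on the log2 scale, and 93 of 136 changes were above 0. In 22 of the 59 that rose the sense gene alone had been called in the NTC or PURPL lines, in 13 the antisense gene alone, in 16 both and in 8 neither.

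TP73, a transcription factor gene of the p53 family, gave the largest rise of a ratio through the sense gene. TP73 fell to 0.789, 0.583, 0.409 and 0.587 CPM in NTC lines with Nutlin-3a, against 2.08, 2.97, 1.87 and 1.38 CPM with DMSO (log2 fold change -1.82 ± 0.22, adjusted p = 1.06e-05, edgeR). TP73-AS1 had 1.07, 0.908, 0.908 and 0.962 CPM, against 1.19, 1.33, 0.877 and 0.922 CPM, overlapping groups with a log2 fold change of -0.18 ± 0.16 (adjusted p = 0.441). The log2 ratio rose by 1.69 ± 0.11 (limma, adjusted p = 1.17e-10).

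SERTAD4 behaved likewise. It fell to 16.3, 15.3, 17.8 and 16.4 CPM in NTC lines with Nutlin-3a, against 43.6, 38.4, 52.8 and 58.3 CPM with DMSO, while SERTAD4-AS1 had 1.52, 1.67, 1.62 and 1.44 CPM, against 1.97, 2.20, 2.18 and 2.50 CPM. Both genes fell, SERTAD4 by more, and the ratio rose by 1.36 ± 0.09 (limma, adjusted p = 7.21e-11). In the PURPL lines SERTAD4-AS1 had overlapping groups and a log2 fold change of -0.24 ± 0.12 (adjusted p = 0.128, edgeR).

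For NOP14-AS1, PAXBP1-AS1, TAF1A-AS1 and CCDC18-AS1 the ratio rose by 1.44 ± 0.08, 1.10 ± 0.12, 1.05 ± 0.09 and 1.00 ± 0.12 on the log2 scale. TAF1A, which encodes a subunit of the RNA polymerase I factor SL1, fell by 0.32 ± 0.06 in the NTC lines (adjusted p = 0.00139, edgeR), while TAF1A-AS1 rose by 0.43 ± 0.14 (adjusted p = 0.0404). TAF1A-AS1 had 0.900, 1.03, 1.04 and 0.837 CPM with Nutlin-3a, against 0.727, 0.691, 0.689 and 0.657 CPM with DMSO, without overlap. ZEB1-AS1 lies beside ZEB1, a repressor of epithelial genes. Its ratio rose by 0.81 ± 0.09 (limma, adjusted p = 1.32e-07), and its own log2 fold change in the NTC lines, 0.30 ± 0.14, did not pass the test (adjusted p = 0.133, edgeR).

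INKA2, which encodes an inhibitor of the kinase PAK4, gave the largest fall of a ratio. INKA2 rose to 16.2, 18.0, 18.0 and 20.0 CPM in NTC lines with Nutlin-3a, against 2.27, 2.46, 2.68 and 2.18 CPM with DMSO, by 2.87 ± 0.09 on the log2 scale (adjusted p = 1.78e-12, edgeR). INKA2-AS1 starts 417 bp away on the other strand and had 1.72, 1.23, 1.29 and 1.5 CPM, against 1.34, 1.30, 1.14 and 0.899 CPM. Its groups overlapped and its log2 fold change was 0.27 ± 0.19 (adjusted p = 0.319). The ratio fell by 2.63 ± 0.12 (limma, adjusted p = 1.8e-13). The exons of this pair do not overlap.

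ZNF337, a zinc finger protein gene, rose by 1.16 ± 0.08 on the log2 scale in the NTC lines (adjusted p = 2.64e-08, edgeR). ZNF337-AS1 had a log2 fold change of 0.08 ± 0.08 (adjusted p = 0.521) and overlapping groups, with 6.00 to 7.07 CPM with Nutlin-3a, against 5.12 to 6.45 CPM with DMSO. The ratio fell by 1.24 ± 0.06 (limma, adjusted p = 1.61e-12), with 2823 bp of shared exons. SVIL, which encodes the actin-binding protein supervillin, rose by 0.54 ± 0.06 while SVIL-AS1 was at -0.04 ± 0.08, and the ratio fell by 0.61 ± 0.06. The ratios of PRR34-AS1, ATP6V0E2-AS1, ZNF213-AS1, PTPRG-AS1 and MAGI2-AS3 fell by 0.96, 0.47, 0.46, 0.44 and 0.41. PRR34 itself was at or under 0.302 CPM in these libraries, so its ratio rests on few counts. In an exact two-sided permutation test within lines p was at most 0.00266 for each of the 15 pairs named here, which were picked for the size of this change in the same libraries, so that it is no independent test.

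**Figure D5:**
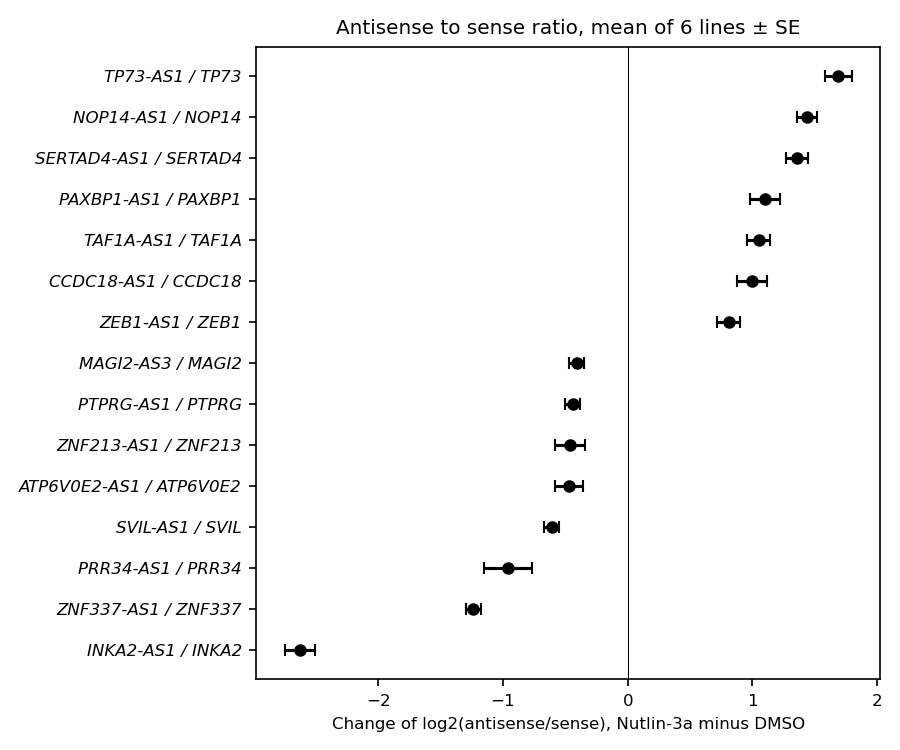
Change of the log2 ratio of antisense to sense level with Nutlin-3a minus DMSO (horizontal axis), mean over 6 lines with SE from limma, for 7 of the pairs that rose most and the 8 that fell most. The ratio of TP73-AS1 to TP73 rose by 1.69 and that of INKA2-AS1 to INKA2 fell by 2.63.

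Lists of sense genes were used to order the members by role. Of 64 known p53 target genes on the list, 0 were the sense gene of a member. The list does not hold every gene that p53 may act on, so this count holds for the list alone. INKA2, the sense gene of INKA2-AS1 with the rise given above, was not on it. Of the genes of the cell cycle, 3 had an antisense member at 0.5 CPM in both treatments, TMPO, OIP5 and MCM3AP. TMPO-AS1 fell in the PURPL and the NTC lines, MCM3AP-AS1 fell in the PURPL lines by 0.32 on the log2 scale, and OIP5-AS1 was not called. Of 17 members beside a transcription factor gene 4 rose (ZNF561-AS1, GABPB1-AS1, ZBTB11-AS1 and ZNF674-AS1) and 1 fell (ZNF433-AS1) in the NTC lines. In the PURPL lines 5 of these rose and 0 fell, and the medians were 0.16 in the NTC lines and 0.18 in the PURPL lines on the log2 scale. Of 27 well studied antisense RNAs 5 rose in the NTC lines (FLG-AS1, DLGAP1-AS1, GABPB1-AS1, TTN-AS1 and TRAM2-AS1) and 2 fell (TMPO-AS1 and THAP9-AS1), and in the PURPL lines 4 rose and 5 fell, with medians of 0.02 and -0.02. The shares of all genes given above are the background of these counts.

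The 26 members that reached 0.5 CPM in 1 treatment alone are given as levels. GAS6-AS1, which overlaps the end of the gene of the receptor ligand GAS6, had 0.913, 1.72, 0.802 and 1.16 CPM in NTC lines with Nutlin-3a, against 0.185, 0.130, 0.0888 and 0.104 CPM with DMSO. In PURPL lines it spanned 0.653 to 1.32 CPM with Nutlin-3a, against 0.0542 to 0.133 CPM with DMSO. GAS6-AS1 was chosen through its level with Nutlin-3a, so a gap between treatments is partly set by the choice. GAS6 had 12.6 to 15.9 CPM in NTC lines with Nutlin-3a, against 12.5 to 24.8 CPM with DMSO. BDNF-AS, beside the gene of a nerve growth factor, had a mean of 0.774 CPM with Nutlin-3a, against 0.340 CPM with DMSO. BCDIN3D-AS1 at 0.758, ZNF436-AS1 at 0.734, SP2-AS1 at 0.730 and RAP2C-AS1 at 0.713 CPM with Nutlin-3a had 0.444, 0.448, 0.488 and 0.457 CPM with DMSO. Among the 6 above the threshold in DMSO alone, FOXD2-AS1 had 0.426 CPM with Nutlin-3a, against 0.660 CPM with DMSO, and CBR3-AS1 0.468 CPM, against 0.649 CPM. PSMD6-AS2, PSMB8-AS1, SLC25A25-AS1 and TFAP2A-AS1 lay between 0.517 and 0.597 CPM with DMSO and under 0.5 CPM with Nutlin-3a.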

How the data were processed

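Libraries were made from polyadenylated RNA with the TruSeq Stranded mRNA kit, per the labels' protocols. The authors deposited estimated counts per gene from RSEM, of which 5.6% to 7.16% per library were not whole. The submitters' processing notes name cutadapt, STAR, RSEM, DESeq2 and hg38, with versions not given in the sources used here, and whether reads were counted by strand is not given either. The labels call the harvests biological replicates, so p-values of the Nutlin-3a responses rest on harvests within a line and those of the guides on lines.

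The 45 rows of second pseudoautosomal copies (0.0222% of counts) were added to their partners, leaving 58825 genes, and counts were rounded. Members were chosen on CPM from column sums. They and the lists were chosen with earlier results of these data known. Coordinates, types, exon lengths and overlaps came from GENCODE 29, in which 47420 IDs matched with their version and 58552 without it. Each member was paired with the gene its symbol names.

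All 178 members passed edgeR's filterByExpr (minimum count 10). Counts were normalised by TMM and tested with the robust quasi-likelihood test of edgeR 4.0.16 in R 4.3.3: a model of 12 group means over 23 libraries for Nutlin-3a, and sums per line for the guides, with line terms for the difference of responses. P-values were adjusted by Benjamini-Hochberg over all genes and called at 0.05. Ratios (log2 CPM with a prior count of 2) were tested with limma 3.58.1 and by exact permutation within lines with a pseudocount of 0.05 CPM. The steps were tested on simulated data. Levels in the text are TMM-normalised CPM, from library totals of 66.4 M to 92.1 M, and floors cover counting error only.

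Named genes were the 10 most abundant members, the 10 up and 10 down by fold change in the NTC lines, the 8 up and 8 down by ratio, the 3 smallest p-values of each guide comparison, members of the lists and of 1 treatment alone; genes outside this rule were named with their values known. The alternatives tried were no filter, RLE size factors, DESeq2 1.42.0, all 24 libraries, a lowess GC trend removed (span 0.3), a replicate block, each library or line left out, and for ratios a prior count of 0.5 and a minimum of 1 CPM. With the GC trend removed, the edgeR fits were not scaled to library depth, while the ratios were. Other cell lines and long reads of the series were not analysed here. A few items picked by this rule are not reported here.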

Additional observations from a re-analysis of the deposited data

Results flagged for a closer look

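A total of 116 groups of 4 to 8 libraries were searched for a library far from the rest of its group by Dixon's test, and 7 were found. Chance would give about 1 in 20 groups if the groups were independent and the libraries of a group alike. The groups share libraries and mix lines, so whether 7 is more than chance gives was not tested. In NTC lines with Nutlin-3a, replicate 3 of NTC1 was the high one for TMPO-AS1, at 8.68 CPM against 7.99 to 8.07 CPM in the other 3, and for DLGAP1-AS1, at 1.41 CPM against 1.07 to 1.10 CPM. In PURPL lines with Nutlin-3a, replicate 3 of sg5 was high for CARD8-AS1 (0.848 CPM, others 0.535 to 0.655) and low for ZEB1-AS1 (3.25 CPM, others 4.09 to 4.51), and replicate 3 of sg2 was high for ZNF337-AS1 (7.29 CPM, others 5.50 to 6.13). In PURPL lines with DMSO, replicate 1 of sg2 was high for SLC25A21-AS1 (0.87 CPM, others 0.340 to 0.574) and replicate 1 of sg4 low for CCDC18-AS1 (0.309 CPM, others 0.508 to 0.683).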

How the results depend on the processing

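In the NTC lines 27 members rose and 9 fell. With the GC trend removed the counts were 15 and 21. That fit did not scale the libraries to their depth, so these counts cannot show the effect of GC content alone. With all 24 libraries the counts were 14 and 2, against 4.18% and 4.03% of all genes. Without the filter on low counts 4 fell, against 7.78% of all genes, where the main fit had 15.9%. The cause of the shifts in these 2 settings was not tested. Leaving out single libraries gave 19 to 27 that rose and 5 to 10 that fell in the NTC lines, 33 to 49 and 10 to 13 in the PURPL lines, and 54 to 61 and 16 to 20 for the ratios. Of all genes 6.61% to 12.0% rose and 11.9% to 16.7% fell in the same NTC fits. In the PURPL fits 13.0% to 19.3% rose and 19.0% to 24.0% fell, and 45.0% to 48.5% of all ratios changed in either direction. In the guide comparisons, leaving out single lines gave 0 to 19 members in DMSO, 0 to 0 with Nutlin-3a and 0 to 5 for the difference of responses; the highest counts came without NTC2, where 36.8% and 16.7% of all genes were called. The replicate numbers were not taken to pair the libraries, with mixed evidence: the correlation of harvest differences between treatments of a line was 0.577, 0.446 and 0.124 in sg5, sg6 and NTC1, but 0.0445 in sg4 and -0.0898 in NTC2. With a replicate block 30 members rose and 10 fell in the NTC lines, 43 and 12 in the PURPL lines, 63 and 19 for the ratios, and 0 were called in each guide comparison. Of all genes 9.89% rose and 17.4% fell in the NTC lines with this block, and 16.7% and 23.6% in the PURPL lines. Of all ratios 49.4% changed in either direction. The removal of the GC trend for the ratios was added after seeing the data (60 rose, 19 fell). All other counts, in the PURPL lines, for the ratios and for the guides, stayed within 1.5 times the main count. Of 1558 values of named genes under the alternatives, 1493 kept their direction and side of the threshold, 46 lost their call, 19 gained one and 0 changed direction. Counting error weighs most on members near 0.5 CPM.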
